A study of Homo sapiens with 16 samples.

Results

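The 39 genes described here encode proteins of homologous recombination and the Fanconi pathway, with mismatch repair, checkpoint and theta end joining genes beside them. They were taken by symbol from a table of 26229 listed genes in 16 RNA-seq libraries. All 39 symbols were found, and all 39 exceeded a mean of 10 counts per library, so they were among the 14673 genes tested. The least covered value among them was 25 counts, for RAD54L in a HaCaT library.

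Homologous recombination copies lost sequence from the sister chromatid after a double-strand break. BRCA1 and the MRE11 complex prepare the broken end, BRCA2 and PALB2 act on it next, RAD51C, RAD51D, XRCC2, XRCC3 and the RAD54 proteins assist strand exchange, and helicases such as BLM process the joint molecules. The Fanconi proteins release crosslinks between DNA strands: a core complex ubiquitinates the FANCD2 and FANCI pair with the E2 enzyme UBE2T. Many of these genes are transcribed mainly in S phase, and E2F factors are known activators of several of them.

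The libraries came from A431, an epidermoid carcinoma line, and HaCaT, a line of immortalised keratinocytes, both grown in DMEM with 10 % FCS. Each line had 1 library with control siRNA (siCTRL), 3 with YAP1 siRNA (siYAP), 1 with empty vector (EV) and 3 with a vector for YAP5SA, the constitutively active YAP1 mutant. The siRNA was transfected 2 times, 24 hours apart, and RNA was taken 48 hours after the second transfection. The siRNA libraries carried no vector and the vector libraries no siRNA, so the kind of transfection separates both arms of the study. The comparisons ask what loss and activation of YAP, a transcriptional co-activator held back by the Hippo pathway, did to these genes.

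The libraries held 18115624 to 46791673 assigned read pairs, and values are given as TMM-normalised CPM, counts scaled to library size. YAP1, the targeted gene, was at 94.2 CPM in A431 siCTRL and at 5.04 to 7.0 CPM with siYAP. The corresponding HaCaT values were 254 and 21.6 to 23.2 CPM. YAP5SA libraries held 1494 to 3244 CPM of YAP1 in A431 and 7546 to 22240 CPM in HaCaT, against 124 and 423 CPM with EV. The siYAP and YAP5SA libraries thus matched their labels. YAP1 levels do not check the siCTRL label against the EV label, or the cell line. All 10 keratinocyte markers examined were detected in every library. Of 9 fibroblast and mesenchymal markers, COL1A2, COL3A1, PDGFRA, PDGFRB, THY1 and TWIST1 stayed under 0.5 CPM in every library, whereas COL1A1, LUM and DCN reached 5.68, 12.7 and 14.2 CPM. Of the leukocyte markers reported, PTPRC and CD3E reached at most 0.255 CPM, CD14 reached 3.62 CPM, and CD68, which is also found outside leukocytes, ran from 8.16 to 169.7 CPM. Against their own 2 replicates, 117 to 428 genes were called in each of A431 YAP5SA replicate 1 and HaCaT YAP5SA replicates 1 and 2, and at most 10 in any other treated library. Only 1 of the 39 repair genes was among these calls, in A431 YAP5SA replicate 1.

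Promoter sequence was available in RefSeq for 35 of the 39 genes (GRCh38.p14, 250 bases before to 50 bases from each start site, 50 promoters in all), and FANCI, NBN, RAD54B and WRN had no entry. The E2F octamers TTTCCCGC, TTTCGCGC, TTTGCCGC and TTTGGCGC were searched on both strands. At least 1 was present for 8 of the 35 genes (22.9%), beside 3.99% of all 27305 genes and 3.31% of all 35116 promoters in the table. The 8 genes with an octamer were EXO1, FANCA, FANCC, FANCD2, MSH6, PMS2, TOPBP1 and XRCC2. Other short motifs were nearer to their background. CCAAT was found for 18 of the 35 genes (51.4%, against 39.7% of all genes and 34.6% of all promoters), TTTGAA, the CHR element of cell cycle genes, for 5 (14.3%, against 18.2% and 15.2%), and GGAATG, the TEAD motif through which YAP binds DNA, for 7 (20%, against 16.7% and 14.0%). The following stretches of 90 bases show the E2F octamers, in capitals, for 4 genes that fell with siYAP over both lines (EXO1, FANCA, FANCD2 and TOPBP1) and for 2 that passed no test against a control (MSH6 and XRCC2). They lie at chr1:241848144-241848233 (+ strand) for EXO1, chr16:89816771-89816860 (- strand) for FANCA, chr3:10026377-10026466 (+ strand) for FANCD2, chr3:133661912-133662001 (- strand) for TOPBP1, chr2:47783085-47783174 (+ strand) for MSH6 and chr7:152676112-152676201 (- strand) for XRCC2. Each is read 5′ to 3′ on the strand of its gene.
EXO1: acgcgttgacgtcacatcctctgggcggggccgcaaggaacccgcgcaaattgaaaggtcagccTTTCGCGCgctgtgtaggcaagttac
FANCA: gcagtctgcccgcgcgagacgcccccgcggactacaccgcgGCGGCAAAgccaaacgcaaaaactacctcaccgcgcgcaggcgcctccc
FANCD2: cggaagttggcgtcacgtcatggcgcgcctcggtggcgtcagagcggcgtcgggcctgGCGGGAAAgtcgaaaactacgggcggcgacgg
TOPBP1: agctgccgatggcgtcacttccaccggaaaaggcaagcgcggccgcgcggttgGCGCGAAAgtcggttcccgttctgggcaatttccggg
MSH6: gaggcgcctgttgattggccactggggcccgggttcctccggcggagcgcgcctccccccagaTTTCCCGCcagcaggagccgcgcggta
XRCC2: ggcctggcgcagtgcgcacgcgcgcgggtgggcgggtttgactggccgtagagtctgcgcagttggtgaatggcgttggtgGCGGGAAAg
In all but FANCA the stretch runs from 60 bases before the start site through its first 30 bases, and the octamer lies within it close to the start. In FANCA the octamer begins 172 bases before the start. Of the 15 genes with a promoter entry that fell with siYAP over both lines 4 held an octamer, and of the other 20 also 4, a difference that was not tested.

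Transcript levels spanned a wide range. Per kilobase of transcript, the highest median over the 16 libraries was 52.5 CPM for UBE2T, followed by 36.0 for NBN, 35.1 for FANCI and 34.8 for RBBP8, the resection factor CtIP. BRCA2 at 2.60, ATRIP at 1.56 and RAD51D at 0.87 CPM per kilobase were lowest, the last over an annotated transcript of 9988 bases. The place of RAD51D in this order depends on that length, which is that of its longest principal transcript. The genes also differed in how much they varied. EXO1 differed 47.8-fold between its lowest and highest library, RAD51AP1 36.7-fold and BLM 26.6-fold, whereas PALB2 stayed within 1.45-fold, FANCF within 1.87-fold and FANCL within 1.89-fold. The heat map of the 16 libraries shows that the strongest contrast was between the siRNA and the vector libraries of HaCaT. Centred per gene, the median of the 39 genes was −0.99 to −0.76 on the log2 scale in the 4 HaCaT siRNA libraries and 0.61 to 0.83 in the 4 HaCaT vector libraries. In A431 the 3 siYAP libraries stood at −0.43 to −0.27 and siCTRL at 0.10, and the 4 vector libraries at 0.30 to 0.54.

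**Figure D1:**
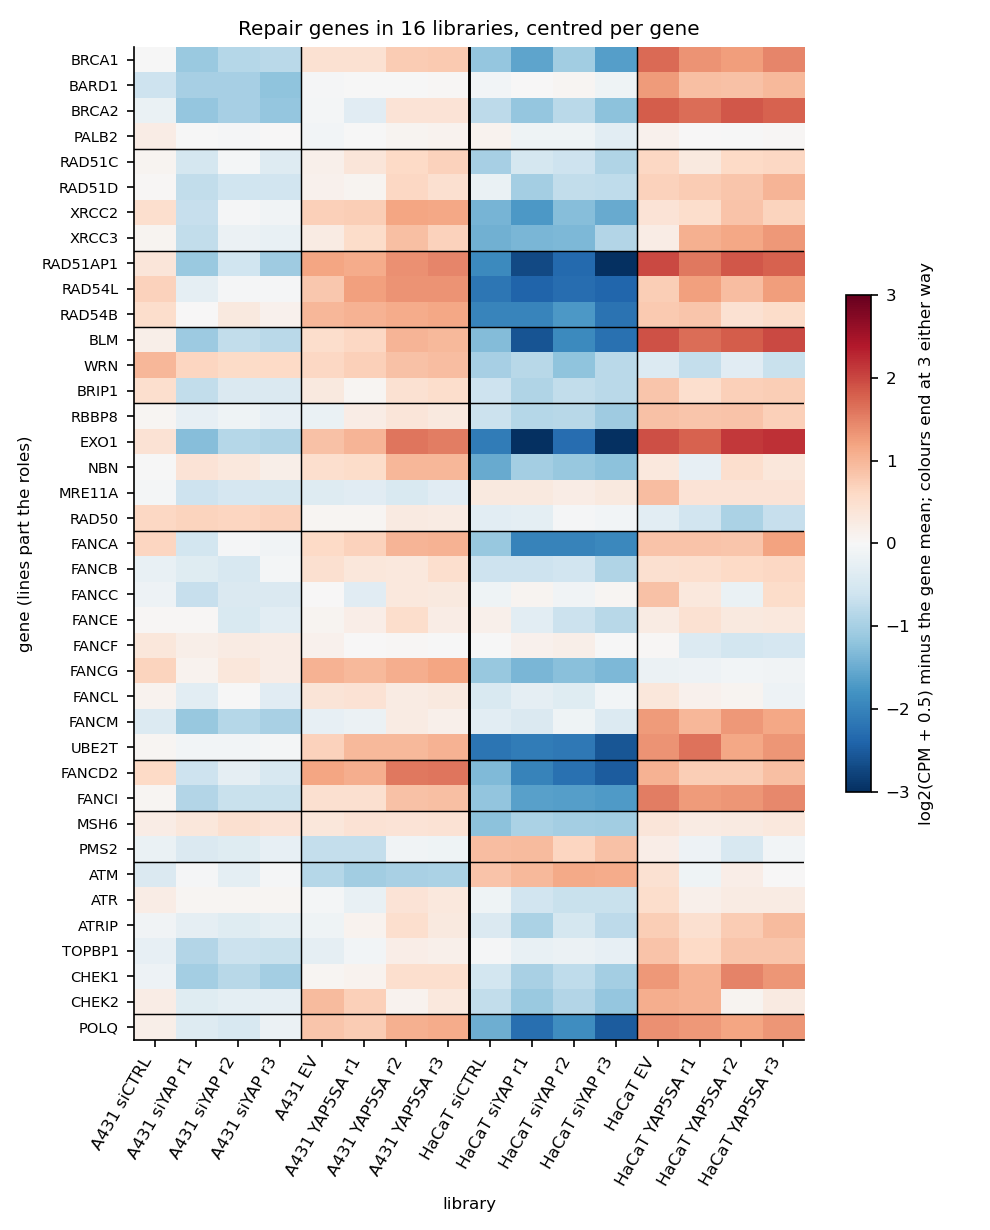
Each row is 1 of the 39 repair genes and each column 1 of the 16 libraries, with colour for log2(CPM + 0.5) minus the mean of the gene and lines between roles, arms and cell lines. The 4 HaCaT siRNA libraries are blue for most genes and the 4 HaCaT vector libraries red, whereas ATM and PMS2 are highest in the 4 HaCaT siRNA libraries within that line.

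A part of the recombination and Fanconi genes fell with siYAP. Of the 39, 12 fell in A431 (edgeR quasi-likelihood test, FDR under 0.05 and logCPM above 1), where 3.78% of all tested genes fell, and 3 of the 39 fell in HaCaT, where 3.3% did. No repair gene rose in either line, where 1.81% of all tested genes rose in A431 and 2.37% in HaCaT. Unadjusted p values under 0.05 were reached in the upward direction by 1 gene, ATM, in A431 and by 0 in HaCaT, and DESeq2 also called 0 upward. Over both lines together, a comparison that uses the same libraries, 16 of the 39 fell (7.68% of all tested genes) and 0 rose (5.3%). In the upward direction 2, MSH6 and ATM, had an unadjusted p under 0.05, and DESeq2 called 1. The median log2 fold change of the 39 genes was −0.46 in A431, −0.20 in HaCaT and −0.29 over both, where that of all tested genes was 0.03, 0.03 and 0.04. All 3 siYAP libraries lay below the siCTRL library for 33 of the 39 genes in A431 (34.9% of all tested genes) and for 21 in HaCaT (33.4%). They lay above it for 4 in A431 (37.4% of all tested genes) and for 8 in HaCaT (36.3%). Each control group is 1 library, so the spread in these tests comes from the treated triplicates. The study's methods call the replicates biological, and the labels do not say which cultures they came from, so the p-values measure the spread between these libraries. Whether fewer cells expressed a gene or each cell held less of its RNA cannot be told apart in bulk RNA.

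**Figure D2:**
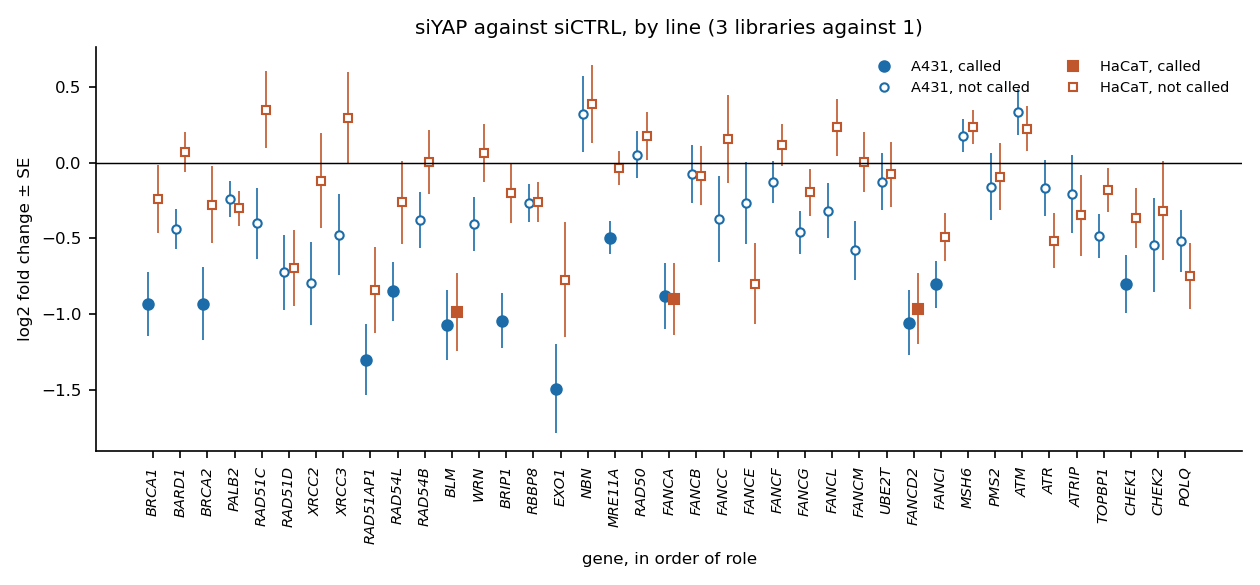
The log2 fold change of each repair gene with siYAP against siCTRL is plotted with its standard error, for A431 (circles) and HaCaT (squares), filled where the gene was called. The filled points, 12 in A431 and 3 in HaCaT, all lie below 0, and the lowest is EXO1 in A431.

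Among the BRCA proteins, BRCA1, a ubiquitin ligase that acts early in recombination, was at 64.4 CPM in A431 siCTRL and at 29.5, 35.2 and 36.6 CPM in the 3 siYAP libraries. It fell to 52.4% of the control (log2 fold change −0.93 ± 0.21, SE; edgeR FDR 0.0238). In HaCaT its siYAP libraries held 21.2, 31.3 and 20.2 CPM around a control of 28.6 CPM and the groups overlapped (−0.24 ± 0.23). BRCA2, a mediator of strand exchange, stood at 16.4, 18.4 and 16.5 CPM in A431 siYAP below 32.6 CPM in siCTRL, a fall to 52.4% (−0.93 ± 0.24, edgeR FDR 0.0416). HaCaT held 16.5, 21.03 and 15.7 CPM of BRCA2 against 21.5 CPM, all below the control but not called (−0.28 ± 0.25). Over both lines, BRCA1 fell by 0.59 and BRCA2 by 0.60 on the log2 scale. PALB2, which joins BRCA1 to BRCA2, passed the test only over both lines (−0.27 ± 0.08, edgeR FDR 0.0473). It was at 61.4, 60.4 and 62.9 CPM against 72.8 CPM in A431 and at 57.01, 57.2 and 50.2 against 67.6 CPM in HaCaT, a small shift on the same side in all 6 treated libraries. Its call was lost when any 1 of the 6 treated libraries was left out. BARD1, the partner of BRCA1, was not called in either line (−0.44 ± 0.13 in A431 and 0.07 ± 0.13 in HaCaT).

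Of RAD51C, RAD51D, XRCC2 and XRCC3, which assist strand exchange, RAD51D alone passed, over both lines (−0.71 ± 0.17, edgeR FDR 0.0186). RAD51D was at 4.81, 5.38 and 5.39 CPM against 8.57 CPM in A431 and at 3.83, 4.81 and 4.69 against 7.21 CPM in HaCaT. The 3 siYAP libraries lay below the control in both lines, by nearly the same log2 amount (−0.72 ± 0.24 and −0.70 ± 0.25). The exons of RAD51D also belong to a readthrough transcript with RFFL, so reads between them are shared. RAD51C, XRCC2 and XRCC3 were lower in all 3 A431 siYAP libraries without a call, with log2 fold changes from −0.80 to −0.40, and in HaCaT they ranged from −0.12 to 0.35.

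RAD51AP1, which promotes strand invasion, was among the most responsive of the 39. In A431 it was at 34.2 CPM with siCTRL and at 11.99, 17.3 and 12.4 CPM with siYAP, a fall to 40.6% (−1.30 ± 0.24, edgeR FDR 0.00857). HaCaT held less of it, 6.66 CPM in siCTRL against 3.6, 4.81 and 2.87 CPM in siYAP, which was not called in that line alone (−0.84 ± 0.28). The groups did not overlap in either line, and over both it fell to 47.6%. RAD54L, a DNA translocase of strand exchange, dropped from 13.1 CPM to 6.41, 7.72 and 7.68 CPM in A431 (−0.85 ± 0.19, edgeR FDR 0.024). In HaCaT its level was 1.36 CPM in siCTRL and 1.08, 1.21 and 1.12 CPM in siYAP. Its call over both lines (−0.56 ± 0.17, edgeR FDR 0.0472) was lost when any 1 of the 6 treated libraries was left out. RAD54B, its relative, was at 35.3, 42.9 and 38.1 CPM against 50.4 CPM in A431 (−0.38 ± 0.19, not called) and straddled its control in HaCaT.

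Among the helicases, BLM, which dissolves joint molecules, fell in both lines. In A431 siCTRL it was at 30.1 CPM and in siYAP at 12.2, 15.8 and 14.97 CPM, a fall to 47.5% (−1.07 ± 0.23, edgeR FDR 0.0185). In HaCaT 10.5 CPM stood against 3.99, 6.75 and 5.22 CPM, a fall to 50.5% (−0.99 ± 0.26, edgeR FDR 0.0398). The 3 treated libraries were below the control in each line, and the falls had nearly the same size. BRIP1, the helicase that binds BRCA1, fell in A431 from 53.02 CPM to 22.3, 27.6 and 27.5 CPM (−1.04 ± 0.18, edgeR FDR 0.00737). In HaCaT it was at 19.9, 22.3 and 21.01 CPM against 24.2 CPM (−0.20 ± 0.20, not called). WRN, the Werner syndrome helicase, was not called in either line (−0.40 ± 0.18 and 0.06 ± 0.19).

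Of the resection genes, EXO1, the exonuclease that extends resected ends, had the lowest fold change of the 39 in A431 and over both lines, though not in HaCaT. It was at 26.8 CPM in A431 siCTRL and at 7.73, 10.7 and 10.3 CPM in siYAP, a fall to 35.5% (−1.49 ± 0.29, edgeR FDR 0.0124). In HaCaT 4.2 CPM stood against 1.9, 3.64 and 1.98 CPM. All 3 were below the control but spread widely, and the fold change was not called there (−0.77 ± 0.38). MRE11A, the nuclease of the MRE11 complex, fell by less in A431, from 65.4 CPM to 44.3, 47.6 and 47.4 CPM (−0.49 ± 0.11, edgeR FDR 0.0204). In HaCaT it held 83.1, 80.04 and 82.95 CPM against 84.03 CPM (−0.03 ± 0.11), and its call over both lines was lost when any 1 treated library was left out. The other subunits of that complex were not called. NBN was above its control in all 6 siYAP libraries (0.32 ± 0.25 in A431 and 0.39 ± 0.26 in HaCaT), and RAD50 as well (0.05 ± 0.15 and 0.18 ± 0.16), none of them called. RBBP8 was below its control in all 6 without a call (−0.27 ± 0.13 and −0.26 ± 0.13).

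In the Fanconi core complex, FANCA was the member that fell, and it did so in both lines. In HaCaT it lost its call whichever siYAP library was left out. In A431 siCTRL it was at 33.3 CPM and in siYAP at 14.2, 20.6 and 19.6 CPM (−0.88 ± 0.22, edgeR FDR 0.0325). HaCaT held 9.34 CPM and 4.88, 4.91 and 5.19 CPM (−0.90 ± 0.24, edgeR FDR 0.0422). The remaining core genes FANCB, FANCC, FANCE, FANCF, FANCG, FANCL and FANCM, and UBE2T, passed no siYAP test, with log2 fold changes from −0.58 to −0.08 in A431 and −0.80 to 0.23 in HaCaT. The pair that the core complex modifies fell in A431, and FANCD2 in HaCaT as well. FANCD2 was at 51.2 CPM in A431 siCTRL and at 21.8, 27.8 and 24.2 CPM in siYAP, a fall to 48.05% (−1.06 ± 0.21, edgeR FDR 0.0138). In HaCaT it was at 13.2 CPM and 8.01, 6.8 and 5.55 CPM, a fall to 51.3% (−0.96 ± 0.23, edgeR FDR 0.029). FANCI fell in A431 from 141.5 CPM to 73.7, 84.9 and 84.7 CPM (−0.80 ± 0.15, edgeR FDR 0.0104). Its HaCaT values of 43.3, 42.5 and 41.6 CPM also lay below the control of 59.7 CPM without a call (−0.49 ± 0.16). Over both lines, FANCD2 fell to 49.6% and FANCI to 63.8%.

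Of the checkpoint genes, CHEK1, the kinase that halts the cell cycle when replication stalls, fell in A431 from 44.8 CPM to 24.6, 27.8 and 24.6 CPM (−0.80 ± 0.19, edgeR FDR 0.0296). In HaCaT it was at 25.3, 29.3 and 24.3 CPM against 33.9 CPM (−0.37 ± 0.20, not called). TOPBP1, the activator of ATR, passed over both lines only (−0.33 ± 0.10, edgeR FDR 0.0469) and lost its call when any 1 treated library was left out. It was at 81.6, 96.5 and 94.6 CPM against 127 CPM in A431 and at 128, 133 and 127 against 147 CPM in HaCaT. POLQ, the polymerase of theta end joining, fell over both lines (−0.63 ± 0.15, edgeR FDR 0.0149). POLQ stood at 43.2, 40.6 and 50.8 CPM against 63.98 CPM in A431 and at 11.5, 15.3 and 9.74 against 20.4 CPM in HaCaT, with no overlap in either line. ATM, the kinase that senses double-strand breaks, was above its control in all 6 siYAP libraries (0.33 ± 0.15 and 0.22 ± 0.15) and was not called. ATR, its partner ATRIP and CHEK2 were below theirs in all 6, with log2 fold changes from −0.54 to −0.17, none called. The mismatch repair genes MSH6 and PMS2 passed no siYAP test, with MSH6 above its control in all 6 libraries (0.18 ± 0.11 and 0.24 ± 0.11).

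The 12 calls in A431 rested on its 3 treated libraries unequally. Without siYAP replicate 1, or without replicate 3, 5 genes were called each time. RAD51AP1, BRIP1, EXO1, FANCD2 and FANCI remained called whichever A431 siYAP library was left out. BRCA2 lost its call without any 1 of the 3, and BRCA1, RAD54L, BLM, MRE11A, FANCA and CHEK1 without replicate 1 and without replicate 3. In HaCaT 1 gene, FANCD2, was called without siYAP replicate 1, and 0 without replicate 3. Without replicate 2, 3 were called, of which BLM was the only one of the original 3. With HaCaT fitted alone 0 of its 3 calls remained, whereas 11 of the 12 did for A431. Over both lines, leaving out HaCaT siYAP replicate 1 left 10 calls, with BRCA1 and BRCA2 among those lost. The calls of RAD51AP1, BLM, BRIP1, EXO1, FANCA, FANCD2, FANCI, RAD51D, CHEK1 and POLQ over both lines were kept whichever treated library was left out. With siCTRL and EV of a line pooled as 2 controls, 0 genes were called in A431 and 24 in HaCaT. The calls over all tested genes with pooled controls are given in the last paragraph, and the leave-one-out counts have no such background. The HaCaT controls differed from each other, as their own comparison shows. With an additive model of line and treatment, 0 genes were called over both lines, although the 16 fold changes kept their direction.

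The siYAP effect was not shown to differ between the lines for any of the 39. In the test of the difference (A431 minus HaCaT), 0 were called, beside 0.17% of all tested genes, 5 had an unadjusted p under 0.05, and DESeq2 called 0. These 5 were BRCA1, BARD1, RAD51C, BRIP1 and MRE11A, each lower in A431, and BRIP1 had the lowest FDR (−0.84 ± 0.28, edgeR FDR 0.26). The share of all tested genes at such an unadjusted p is not given here. Counts of unadjusted p values, in this and the other comparisons, therefore have no background and show no trend of the set. BLM, FANCA and FANCD2, the 3 genes called in both lines, had nearly the same fold change in each.

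Related gene groups were examined for comparison, each with its count and its median over both lines. Of 43 other tested recombination and Fanconi genes, 6 fell and 1 rose, with a median log2 fold change of −0.13. Among those that fell were EME1 (−0.95), a nuclease subunit, and GEN1 (−0.66), a resolvase, and the gene that rose was SWI5 (0.61), an accessory factor of strand exchange. Of 38 DNA replication genes 24 fell, with a median of −0.68. In A431 23 of the 38 fell and in HaCaT 1 did. The 3 lowest were MCM10 (−1.49), CDC45 (−1.43) and RRM2 (−1.31), which act in origin firing and nucleotide supply. Among 24 mitosis genes 1 fell (median −0.24). Of the other groups, 0 of 10 non-homologous end joining genes and 0 of 5 other mismatch repair genes passed, 4 of 30 base and nucleotide excision repair genes fell and 1 rose, and 6 of 23 other checkpoint genes fell and 1 rose. E2F1, an activator of S phase genes, was at 27.6 CPM in A431 siCTRL and at 5.27, 13.4 and 9.58 CPM in siYAP. It fell over both lines (−1.33, edgeR FDR 0.0236) but was not called in HaCaT alone (−1.11, edgeR FDR 0.287). The part of S phase content in the repair gene falls was not tested.

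**Figure D3:**
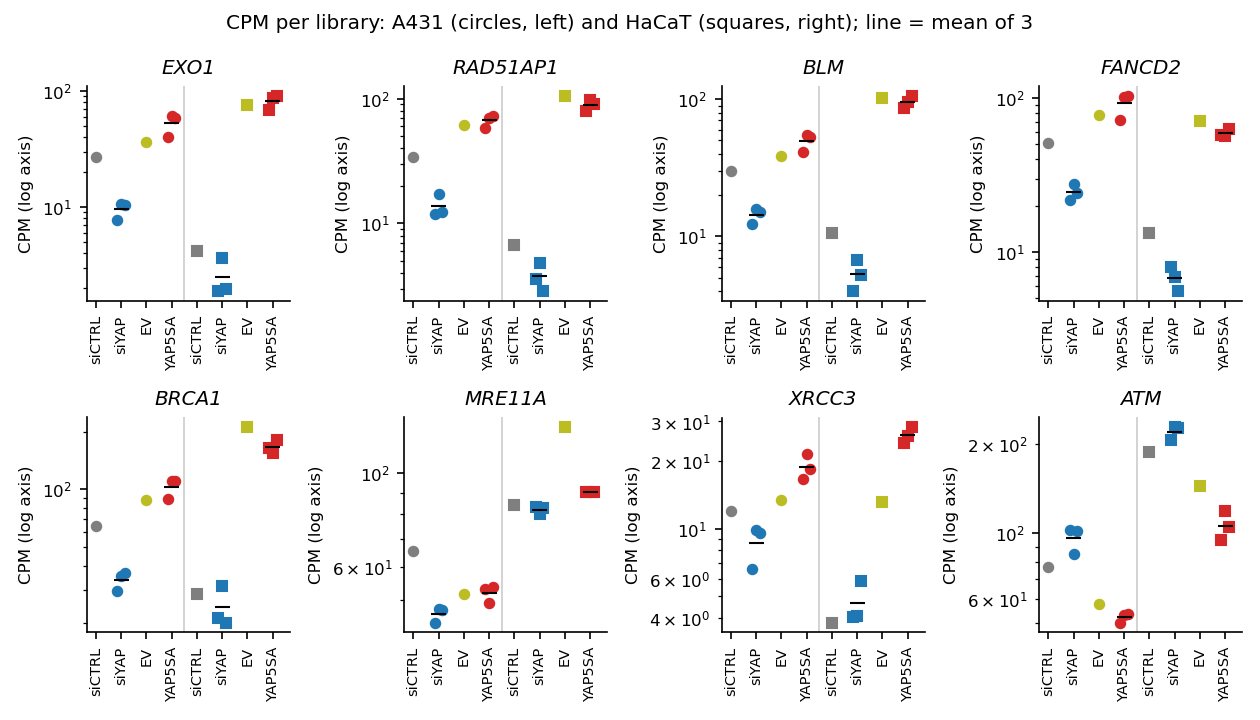
CPM on a log axis is plotted for 8 genes in every library, with A431 as circles on the left of each panel and HaCaT as squares on the right, and a line at the mean of 3 replicates. For EXO1, RAD51AP1, BLM and FANCD2 the siYAP libraries lie below siCTRL in both lines, and the HaCaT vector libraries lie far above all HaCaT siRNA libraries, whereas ATM is highest in the HaCaT siRNA libraries.

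With active YAP few of these genes passed the test. In A431, YAP5SA against EV called 0 of the 39 genes, beside 0% of all tested genes (edgeR), and DESeq2 also called 0 of the 39. RAD54L, RBBP8 and TOPBP1, 3 genes in all, had an unadjusted p under 0.05, each above EV, a count given without the share of all tested genes. YAP1 itself, which the vector raised, was not called there either (4.36 on the log2 scale). The lack of calls therefore does not show that the repair genes were unchanged. The 39 leaned upwards, with a median log2 fold change of 0.26 where that of all tested genes was 0.02. All 3 YAP5SA libraries lay above EV for 22 of them (28.9% of all tested genes) and below it for 3 (24.5%). RAD54L, for example, was at 19.3, 21 and 20.7 CPM against 14.2 CPM (0.52 ± 0.20), and EXO1 at 40.2, 60.9 and 57.97 against 36.2 CPM (0.55 ± 0.31). Replicate 1 was the lowest of the 3 for both, and the median log2 difference of the 39 genes from the other 2 replicates was −0.30.

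In HaCaT, 2 of the 39 fell with YAP5SA (6.64% of all tested genes) and 1 rose (6.99%), shares below those of all genes. XRCC3 was at 23.9, 25.7 and 28.3 CPM in the 3 YAP5SA libraries and 13.2 CPM in EV, a rise to 197% (0.98 ± 0.28, edgeR FDR 0.0351). Its A431 values of 16.6, 21.5 and 18.3 CPM also lay above the EV value of 13.4 CPM without a call (0.49 ± 0.27). Exons of XRCC3 overlap KLC1 on the opposite strand, and no source used here states that reads were counted by strand. MRE11A was at 90.1, 90.3 and 90.1 CPM with YAP5SA and 129 CPM with EV, a fall to 70.1% (−0.51 ± 0.11, edgeR FDR 0.0112). The EV library was the highest of the 8 HaCaT libraries, whose 4 siRNA libraries held 80.0 to 84.0 CPM, and the call was lost with siCTRL and EV together as 2 controls (−0.24). FANCF, the core complex adaptor, was at 20.9, 18.9 and 19.4 CPM with YAP5SA, 28.6 CPM with EV and 27.7 CPM with siCTRL (−0.54 ± 0.14, edgeR FDR 0.0226). Without YAP5SA replicate 3, neither XRCC3 nor FANCF was called, and with HaCaT fitted alone 0 of the 3 were. All 3 YAP5SA libraries lay below EV for 21 of the 39 genes (33.9% of all tested genes) and above it for 7 (32.1%). The median log2 fold change was −0.11 where that of all genes was 0.01.

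**Figure D4:**
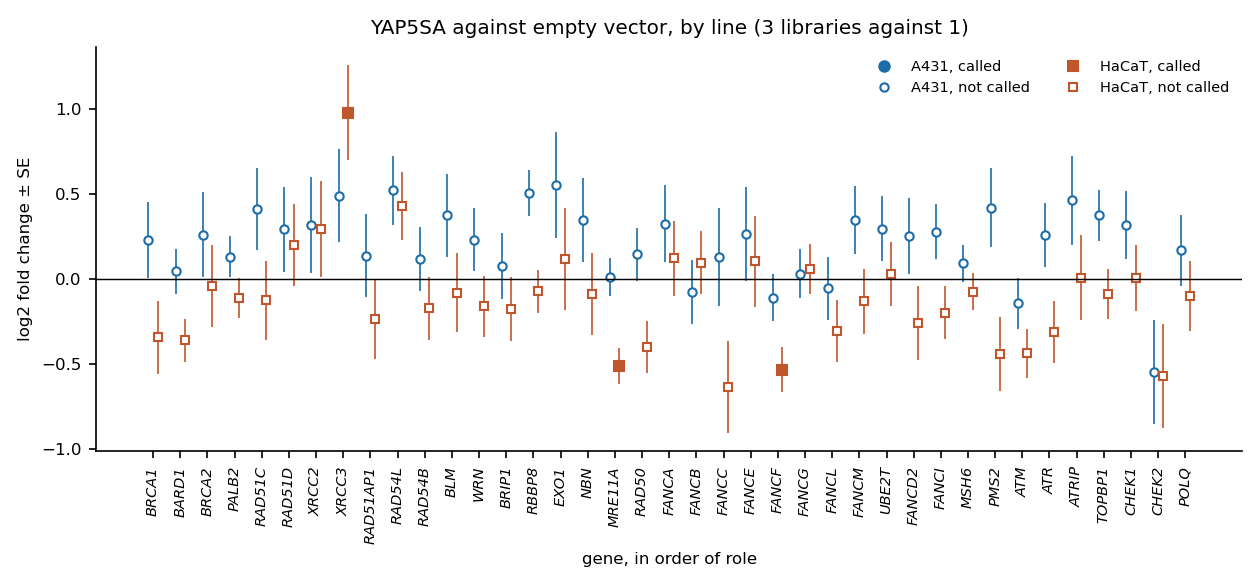
The log2 fold change of each repair gene with YAP5SA against EV is plotted with its standard error, for A431 (circles) and HaCaT (squares), filled where the gene was called. Most A431 points lie above 0 and none is filled, whereas the HaCaT points scatter around 0 with XRCC3 filled above and MRE11A and FANCF filled below.

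Over both lines 0 of the 39 passed with YAP5SA, against 0.661% of all tested genes that fell and 1.38% that rose. Unadjusted p values under 0.05 were reached by 4 genes downwards (MRE11A, FANCF, ATM and CHEK2) and 3 upwards (XRCC3, RAD54L and RBBP8), and DESeq2 called 4. CHEK2, a checkpoint kinase, was at 46.4, 30.1 and 34.96 CPM in A431 YAP5SA against 54.3 CPM in EV (−0.55 ± 0.31) and at 58.4, 29.4 and 33.6 against 60.2 CPM in HaCaT (−0.57 ± 0.30), below EV in all 6 but with wide spread and no call. In the test of the difference between the lines, 0 were called with edgeR (0.0886% of all tested genes), 7 had an unadjusted p under 0.05, and DESeq2 called 1. The 7 were BARD1, RBBP8, MRE11A, RAD50, PMS2, ATR and TOPBP1, each with the higher fold change in A431, and MRE11A had the lowest FDR (0.53 ± 0.16, edgeR FDR 0.0959). These unadjusted counts, too, have no share of all tested genes beside them. Without A431 YAP5SA replicate 1, 2 of the 39 were called.

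Large differences among these genes lay between the arms of the study in HaCaT. In the HaCaT EV library 36 of the 39 genes were above the HaCaT siCTRL library, as were 7012 of all 14673 tested genes. Of the 39, 26 were over 2-fold higher, whereas 14.8% of all tested genes were over 2-fold higher. The median log2 ratio of the 39 was 1.59, beside −0.03 for all tested genes. This sets 1 library against 1, with no replicate check and no test. EXO1 was 18-fold higher with EV (75.7 against 4.2 CPM), RAD51AP1 15.8-fold (105 against 6.66 CPM) and UBE2T 12.3-fold (91.8 against 7.48 CPM). RAD54L was 9.84-fold and BLM 9.68-fold higher, followed by BRCA1 at 7.39-fold and POLQ at 7.29-fold. ATM at 0.765, PMS2 at 0.604 and RAD50 at 0.988 of the siCTRL level were the 3 that were not higher, and PALB2, FANCF and FANCE lay within 1.07-fold. In A431 the same ratio was over 2-fold for 0 of the 39 (3.85% of all tested genes) and its median log2 was 0.15.

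DNA replication and mitosis genes moved the same way between these HaCaT libraries. All 38 replication genes were higher with EV than with siCTRL, 34 of them over 2-fold (median log2 ratio 2.31), and all 24 mitosis genes were over 2-fold higher (3.16). Summed, the mitosis genes held 519 to 900 CPM in the 4 HaCaT siRNA libraries and 5289 to 7567 CPM in the 4 HaCaT vector libraries, and 2554 to 3063 and 4310 to 5475 CPM in A431. E2F1 was at 2.4 CPM with HaCaT siCTRL, 1.35, 0.826 and 1.12 CPM with siYAP, 14.2 CPM with EV and 20.7, 13.4 and 27.1 CPM with YAP5SA. The 9 fibroblast and mesenchymal markers together held 21.5 to 27.9 CPM in the HaCaT siRNA libraries and 0.796 to 2.05 CPM in the HaCaT vector libraries. In A431 they held 10.2 to 14.9 CPM with siRNA and 2.45 to 5.51 CPM with vector. COL1A1, LUM and DCN reached the highest levels of the 9. The part of cell cycle state or of these markers in the repair gene differences was not tested, and siRNA, vector and any difference in culture between the arms cannot be told apart.

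The difference between the cell lines depended on the arm. Over all treatments 17 of the 39 were higher in A431 than in HaCaT (33.1% of all tested genes, edgeR) and 9 lower (27.5%). In the 4 siRNA libraries of each line, a comparison chosen after the values were seen, 24 were higher in A431 (31.3% of all tested genes) and 6 lower (25.7%), with a median log2 difference of 0.76. In the 4 vector libraries of each line, 6 were higher in A431 (27.4%) and 20 lower (26.2%), with a median of −0.42. The median of all tested genes was 0.02 and 0.05. The difference itself, siRNA minus vector, was higher for 30 of the 39 (22% of all tested genes) and lower for 1, PMS2 (18.7%). In the siRNA libraries 9 genes were higher in A431 that were lower in the vector libraries: BRCA1, RAD51AP1, BLM, BRIP1, RBBP8, EXO1, UBE2T, FANCI and POLQ. The share of all tested genes that crossed in this way was not counted, so this number has no background beside it.

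BLM shows the crossing. A431 was above HaCaT by 1.48 ± 0.18 on the log2 scale in the siRNA libraries (edgeR FDR 1.1e-05) and the difference was −1.18 ± 0.17 in the vector libraries (edgeR FDR 5.75e-05). Its 8 A431 values ran from 12.2 to 54.8 CPM, within the HaCaT span of 3.99 to 106 CPM. BRCA2 differed by 0.28 ± 0.18 in the siRNA libraries, which was not called, and by −1.74 ± 0.18 in the vector libraries (edgeR FDR 3.24e-06). Some genes kept their side. RAD54B, WRN, RAD50, FANCG and FANCD2 were higher in A431 in both arms, and BARD1, MRE11A, FANCM, PMS2, ATM and TOPBP1 lower in both. WRN was at 55.7 to 75.4 CPM in the 8 A431 libraries and 16.03 to 29.5 CPM in the 8 HaCaT libraries, without overlap. ATM was at 49.99 to 102 CPM in A431 and 94.6 to 227 CPM in HaCaT, with the lowest HaCaT values in the vector libraries.

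**Figure D5:**
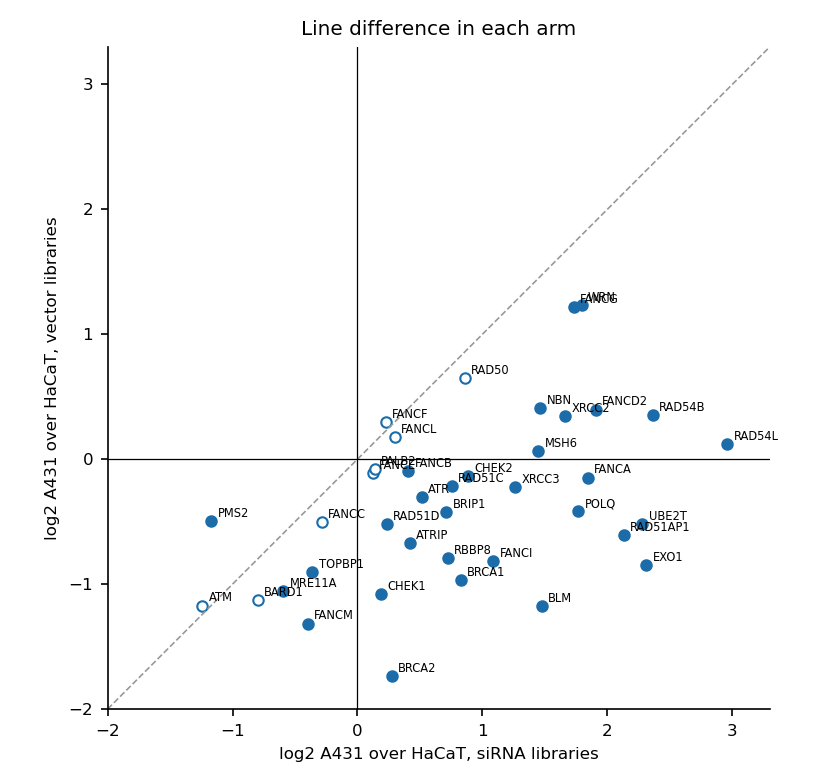
Each point is 1 repair gene, with the log2 difference between A431 and HaCaT in the siRNA libraries on the horizontal axis and in the vector libraries on the vertical axis, filled where the 2 differences differed from each other. All points but FANCF, PMS2 and ATM lie below the dashed line of equal difference, and the lower right region holds the genes that were higher in A431 with siRNA and lower with vector.

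YAP5SA against siYAP, the comparison with 3 replicates on each side, called most of the set. In A431, 30 of the 39 were higher with YAP5SA (20% of all tested genes) and 2, RAD50 and ATM, lower (14.6%). In HaCaT 32 were higher (31.5%) and 4, RAD50, FANCF, PMS2 and ATM, lower (28.5%). EXO1 differed by 2.48 ± 0.23 in A431 (edgeR FDR 9.03e-06) and by 5.06 ± 0.27 in HaCaT (edgeR FDR 7.05e-09). This comparison changes the kind of transfection together with YAP. With each arm first set against its own control, 3 genes were called in A431 and 0 in HaCaT, and 3 and 9 of the called genes changed sign. For the 28 genes higher with YAP5SA in both lines, the part of YAP cannot be told apart from that of the transfection. The share of all tested genes higher in both lines was not counted.

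Several values have limits in how reads were assigned. Exons of 13 of the 39 genes overlap another protein-coding gene in GENCODE v29, 9 of them on the opposite strand, among them FANCD2 with FANCD2OS, FANCI with POLG, FANCA with ZNF276, RAD54L with LRRC41 and MRE11A with ANKRD49. PMS2, CHEK2 and FANCD2 have near-identical pseudogene copies, so their levels are uncertain. The estimated counts of PMS2 and FANCD2 were fractional in most libraries, as division of reads leaves them. Those of CHEK2 were whole in every library, so no division of its reads between copies shows. Fractional counts were also present for BRCA1, XRCC2, FANCA, FANCI and ATM, among others.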

How the data were processed

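Per the labels, RNA-seq reads were processed with RSEM 1.2.11 on hg19 (the study's methods give a later RSEM release) and handled in edgeR by the authors. The authors deposited estimated counts of read pairs per gene from this step, with no normalisation, and these were rounded to whole numbers here. The libraries held 18115624 to 46791673 assigned pairs (median 26622174), and TMM factors ran from 0.914 to 1.07. Genes with a mean count above 10 were tested (14673 of 26229) in R 4.3.3 with the quasi-likelihood test of edgeR 4.0.16, on 8 groups (line by treatment, 8 residual degrees of freedom, prior count 0.125). A call needed a Benjamini-Hochberg FDR under 0.05 and logCPM above 1, as in the study. SE is the absolute log2 fold change divided by the square root of F. The study's methods speak of triplicates, but each control group is 1 library here. Values per library were given for members called in a YAP comparison, and the rest by range. Of the lists of other recombination genes and DNA replication genes, the 3 called genes with the lowest and the 3 with the highest fold change over both lines were named, with YAP1 and E2F1 beside them; 1 of these genes is not reported here. The members and lists were chosen with earlier results of these data known. DESeq2 1.42.0, the edgeR likelihood ratio test, other filters, pooled controls, additive and separate fits, a replicate block and leaving out each treated library were tried. Levels per kilobase used the longest principal GENCODE v29 transcript. Promoters and motifs came from RefSeq on GRCh38.p14, another build than the counts.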

Additional observations from a re-analysis of the deposited data

How the results depend on the processing

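No gene called in a comparison with siCTRL or EV changed sign under another setting. Of the 26 genes called between the lines, 2 changed sign in the siRNA libraries alone and 6 in the vector libraries alone, and sign changes of called genes for YAP5SA against siYAP numbered 3 in A431 and 9 in HaCaT. With siCTRL and EV as 2 controls, genes that had not been called also changed sign, 19 for YAP5SA in HaCaT, 11 for siYAP in HaCaT, and 27 and 22 for the differences of the siYAP and YAP5SA effects between lines. With DESeq2, 6 of the 39 genes were called for siYAP in HaCaT, 5 for YAP5SA in HaCaT, 4 for YAP5SA over both lines and 1 for the difference of the YAP5SA effect between lines. With the likelihood ratio test of edgeR, 5 were called for siYAP in HaCaT and 1 for YAP5SA over both lines. With each line fitted alone, 0 were called for siYAP and 0 for YAP5SA in HaCaT. With siCTRL and EV as 2 controls, 0 were called for siYAP in A431, 24 in HaCaT and 28 over both lines, and 3 for YAP5SA over both lines. With the additive model, 0 were called for siYAP over both lines. With each arm set against its own control, 3 were called for YAP5SA against siYAP in A431 and 0 in HaCaT. Leaving out 1 treated library at a time gave 5 to 11 calls for siYAP in A431, 0 to 3 in HaCaT and 10 to 12 over both lines, and 1 to 5 for YAP5SA in HaCaT (5 without replicate 1), 0 to 3 over both lines (3 without HaCaT replicate 1 and 1 without A431 replicate 1) and 0 to 2 for the difference of the YAP5SA effect. Calls over all tested genes are given below for some of these settings, and the other counts have no background beside them. The control groups hold 1 library each and could not be left out. The causes were not tested.

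Same-numbered siYAP and YAP5SA libraries did not deviate together (correlations of −0.003 to 0.073), so the numbers were not taken to pair the samples. With the replicate number as a block, 15 genes were called for siYAP in A431, 4 in HaCaT and 16 over both lines, and 3 for YAP5SA in HaCaT and 1 over both lines.

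Over all tested genes, the calls for siYAP were 821 in A431, 832 in HaCaT and 1904 over both lines. DESeq2 gave 1430 and 1345 for the lines, and the likelihood ratio test 1294 in A431. For YAP5SA over both lines, 300 genes were called with the quasi-likelihood test, 1063 with DESeq2, 970 with the likelihood ratio test and 611 with the block. The interaction tests called 25 genes for siYAP and 13 for YAP5SA, and 294 and 943 with DESeq2. With HaCaT alone, 349 were called for siYAP and 653 for YAP5SA, where 2001 were called in the joint fit. With 2 controls, siYAP called 198 genes in A431 and 2941 in HaCaT, and the additive model called 206 over both lines. Depth limits the low values most: RAD54L in HaCaT siRNA libraries is the least counted.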
